A study of Bos taurus with 18 samples.

Results

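The symbols of 10 adipocyte genes were looked up in the count files of undifferentiated bovine mesenchymal stem cells, and 9 of the 10 were among the 16989 genes listed. The 9 were the transcription factors PPARG, CEBPA and CEBPD, the fatty acid genes LPL and FABP4, the lipid droplet genes PLIN1, PLIN2 and PLIN4, and the adipokine gene ADIPOQ. No row carried the symbol CEBPB, so this early regulator was not analysed here.

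Poly-adenylated RNA was sequenced from 17 clones, A to Q, and from 1 heterogeneous (mixed) population of the same donor. The cells were MSCs from tibial and femoral marrow of juvenile cows (3 to 6 months old), grown as monolayers on plastic in DMEM with FBS and antibiotics and taken at passage 1. Each clone was expanded from 1 cell, was sequenced once, and neither the clones nor the mixed population received differentiation medium. A clone is therefore both the unit of comparison and its only measurement, and all 18 libraries come from 1 donor. The study asked whether transcripts present before differentiation mark cells with different potential, and it used LPL as its marker of the adipogenic fate.

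Adipocyte formation runs through a relay of transcription factors. CEBPB and CEBPD respond first to an adipogenic stimulus and induce CEBPA and the nuclear receptor PPARG, which then maintain each other and switch on the genes of the mature fat cell. Those genes take up fatty acids (LPL cuts them from circulating triglyceride, FABP4 carries them in the cytoplasm), coat the lipid droplet (the perilipins PLIN1, PLIN2 and PLIN4) and make the hormone adiponectin (ADIPOQ). Marrow stroma is known for cells that carry part of this programme without storing fat.

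Reads on genes numbered 11484812 to 18458157 per clone (median 14193790) and 16092501 in the heterogeneous library, and levels are given as CPM, the reads of a gene scaled to this total. At this depth 3 reads correspond to 0.163 to 0.261 CPM. Gene lengths were not used, so levels are compared between libraries and not between genes. Reads that fell outside genes made up 18.8% of the file in clone A and 26.8% in clone N, the highest of the 18 libraries, with clone L next at 24.8%. Clones C and O were the most alike of the 136 pairs of clones: their counts differed by a mean chi-square of 4.90 per gene over 10893 genes, where sampling noise alone gives about 1, and the next pair, E and F, stood at 22.3. C and O were kept as separate clones, and their counting intervals overlapped for 8 of the 9 genes (all but CEBPA), against a median of 4 of 9 over all pairs.

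The stromal label was checked first. THY1 (lowest clone 225 CPM), ENG (134 CPM), PDGFRB (180 CPM), PDGFRA (85.8 CPM), ALCAM (65.8 CPM) and CXCL12 (31.1 CPM), all markers of marrow stroma, were found in every clone. VCAM1 had a median of 1 read per clone and MCAM a median of 6.45 CPM. Of the markers of mature adipocytes outside the 9 genes, the droplet protein CIDEC had at most 4 reads and leptin (LEP) at most 1 read in any clone, whereas the hormone-sensitive lipase LIPE lay between 1.08 and 3.43 CPM. The lipase PNPLA2 and the desaturase SCD, which most cells use, were listed with 0 reads in all 18 libraries, so for single genes a 0 may reflect the annotation and says nothing of the cells.

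PPARG, the regulator on which fat cell formation depends, was read in every clone. It ranged from 2.62 CPM in clone Q through a median of 11.9 CPM to 24.2 CPM in clone F, a 9.26-fold range, and the heterogeneous library held 16.8 CPM, above 15 of the 17 clones. Clones Q, P (3.06 CPM), N (4.36 CPM), C (4.46 CPM), O (5.34 CPM) and G (5.88 CPM) formed the low end. The 95% counting interval of clone F (21.8 to 26.9 CPM) lay clear of that of clone E, the next highest (16.02 to 20.3 CPM), and this was the only 1 of the 16 steps in the order of clones at which neighbours' intervals did not overlap.

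CEBPA, the partner that holds PPARG on, ranged from 3.12 CPM in clone N through a median of 12.7 CPM to 20.1 CPM in clone M. The heterogeneous library, at 14.1 CPM, lay above 12 clones. Clones C, G, N, O, P and Q, the 6 lowest in PPARG, were also the 6 lowest in CEBPA, a coincidence looked for after the values were seen. Clone N stood below its neighbour O, with intervals of 2.26 to 4.20 CPM and 4.72 to 7.17 CPM, and the other 15 neighbouring pairs overlapped.

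CEBPD, an early factor that glucocorticoid and other stimuli induce, had another order. It ran from 9.52 CPM in clone G through a median of 20.5 CPM to 42.6 CPM in clone J, and 40.0 CPM in the heterogeneous library. Clones P (32.7 CPM) and Q (31.7 CPM), the lowest in PPARG, were the next highest in CEBPD after J, and clone F, the highest in PPARG, was among the lowest at 10.1 CPM.

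FABP4, the cytoplasmic fatty acid carrier, had the widest range of the 9 genes. It went from 0.710 CPM in clone E (11 reads) through a median of 6.10 CPM to 85.5 CPM in clone N (1178 reads, 95% interval 80.7 to 90.6 CPM). Clone N exceeded the next clone, Q at 15.1 CPM, by 5.67-fold, and it was the only clone set apart from its neighbour by its interval. The heterogeneous library held 4.35 CPM, below 9 of the clones.

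LPL, the lipoprotein lipase, ranged from 0.893 CPM in clone G (12 reads) through a median of 2.59 CPM to 15.03 CPM in clone N (207 reads). A group of 5 clones stood high, namely N, H (10.5 CPM), Q (8.69 CPM), K (8.28 CPM) and L (8.01 CPM), and the next was A at 4.79 CPM. Of these 5, clones H, L, N and Q were also among the 5 highest in FABP4. The heterogeneous library held 6.71 CPM, between A and L.

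The perilipins differed among themselves. PLIN2, the droplet coat protein found in most cell types, was read at 136 CPM in clone N, a median of 192 CPM and 240 CPM in clone B, a range of 1.77-fold. PLIN1, the coat protein of mature adipocytes, was low and even, from 3.37 CPM in clone O through a median of 5.45 CPM to 7.26 CPM in clone N, and no neighbouring clones had intervals apart. PLIN4, which coats small nascent droplets, had between 0 reads (clone L, which allows up to 3 reads) and 19 reads (clone H, 1.19 CPM) with a median of 5 reads, so its order among clones was hardly resolved at this depth.

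ADIPOQ, which encodes adiponectin, ranged from 0.516 CPM in clone E (8 reads) through a median of 4.79 CPM to 27.95 CPM in clone N (385 reads, 95% interval 25.2 to 30.9 CPM). Clone L followed at 10.6 CPM (8.95 to 12.4 CPM), and again clone N alone was apart from its neighbour. The heterogeneous library, at 0.684 CPM (11 reads), lay below 15 of the 17 clones. In bulk RNA a smaller share of expressing cells and less RNA per cell cannot be told apart, for this gene and for the others.

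**Figure D1:**
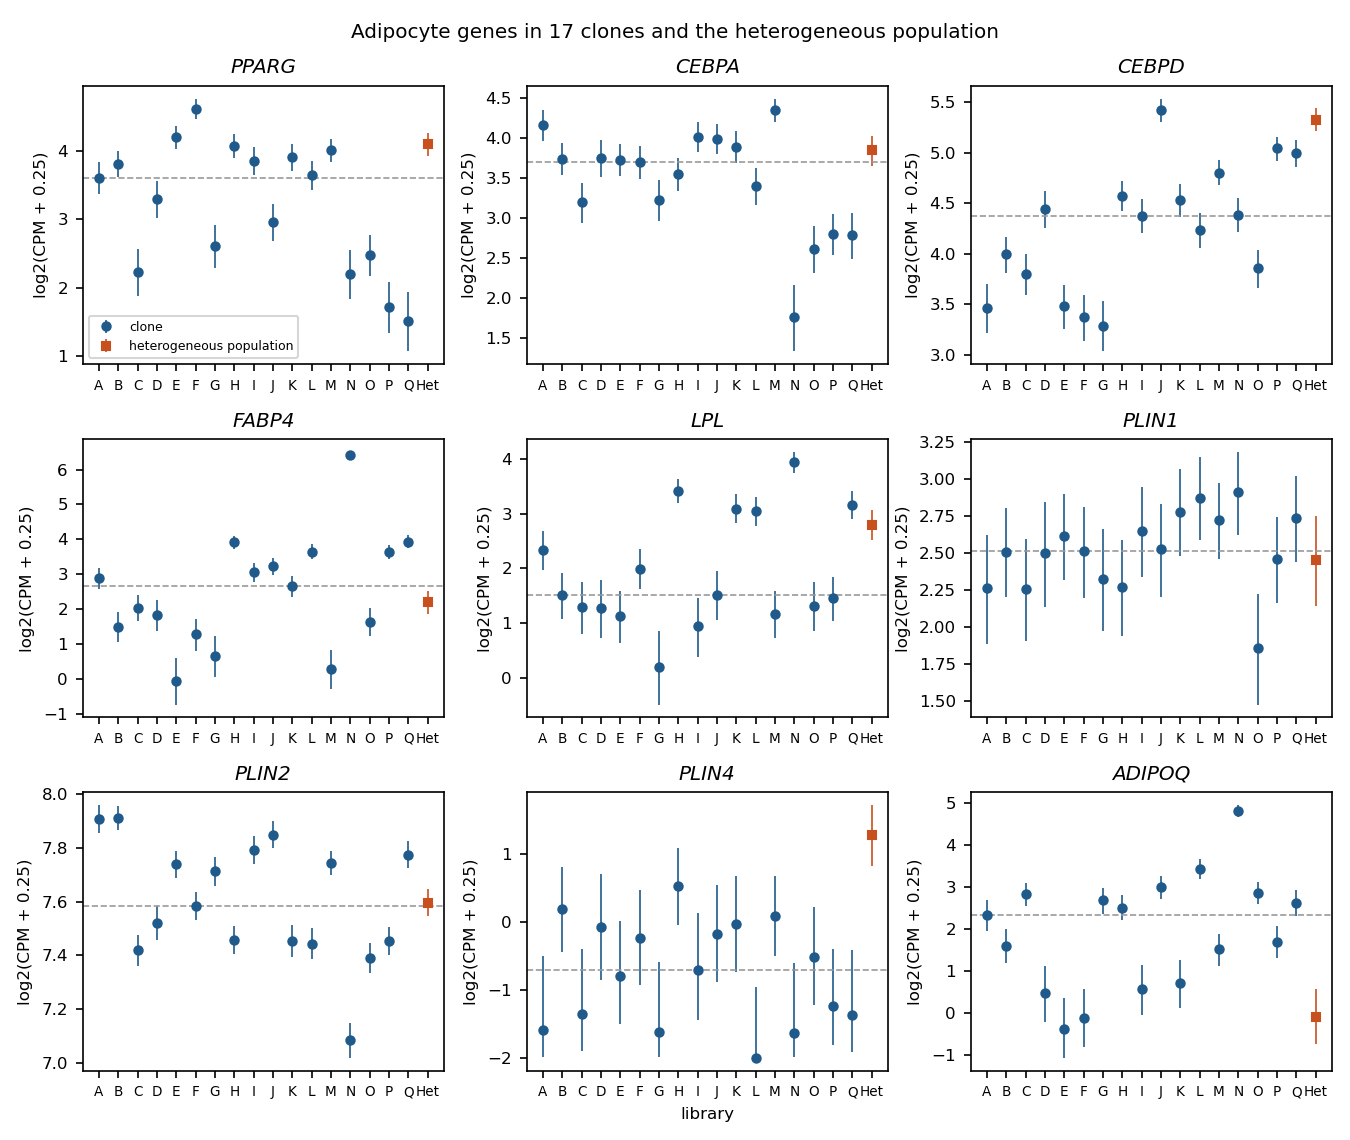
Level of each adipocyte gene as log2(CPM + 0.25) (vertical axes, scaled per gene) in clones A to Q and the heterogeneous population (horizontal axes). Circles are clones, the square is the heterogeneous population, bars are exact 95% Poisson intervals that cover counting error only, and the dashed line is the median of the clones. Clone N stands at the top for FABP4 (85.5 CPM), LPL (15.03 CPM) and ADIPOQ (27.95 CPM) and at the bottom for CEBPA (3.12 CPM) and PLIN2 (136 CPM).

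The spread between clones set the 9 genes in an order of their own. Over the 17 clones the SD of log2(CPM + 0.25) was 1.62 for FABP4, 1.38 for ADIPOQ, 1.05 for LPL and 0.93 for PPARG. Among the 10711 genes with a mean of at least 1 CPM, for which the median SD was 0.33, these values stood at the percentiles 99.1, 97.9, 94.1 and 92.3. CEBPA (SD 0.66), CEBPD (0.63) and the sparsely counted PLIN4 (0.77) were between, at percentiles 84.6, 83.4 and 88.3. PLIN4 itself has a mean under 1 CPM and so is outside the set it is ranked in. PLIN1 (SD 0.27) and PLIN2 (0.22) were below the median gene, at percentiles 33.2 and 20.6. These ranks are not matched for level. By edgeR's coefficient of variation beyond counting error they were close to the median gene (21.95% and 22.16% against 22.34%). Counting error alone would give an SD of 0.19 for FABP4, 0.13 for PPARG, 0.16 for PLIN1 and 0.33 for PLIN4, so that the spread of FABP4 was 8.67 times, that of the deeply counted PLIN2 8.21 times and that of PLIN1 1.71 times its counting error. The most even genes of the set were thus 2 droplet coat proteins and the most uneven were the fatty acid carrier, the adipokine and the lipase.

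**Figure D2:**
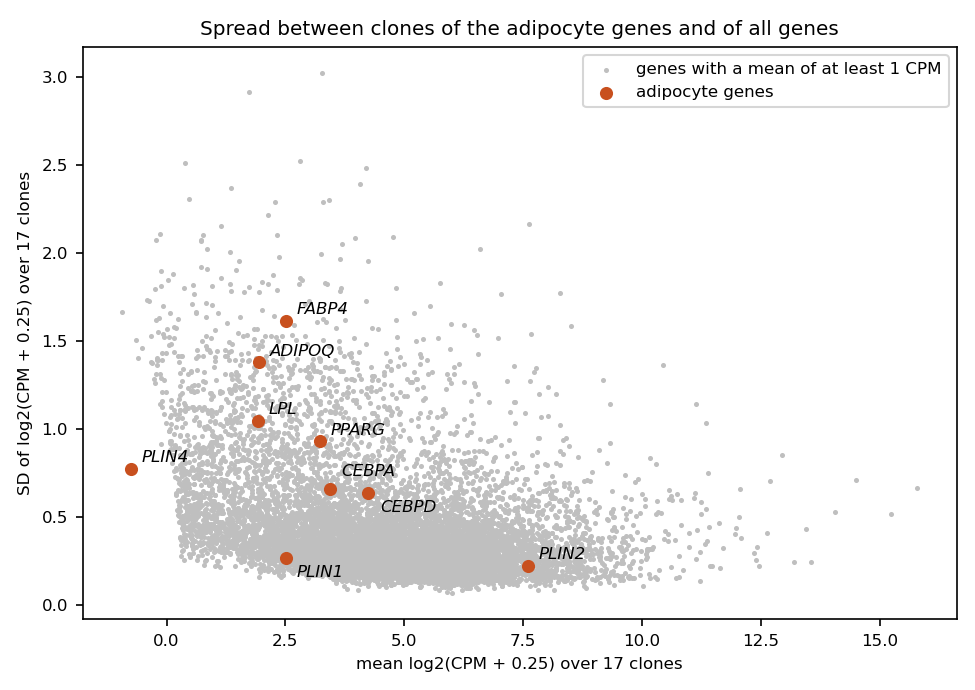
SD over the 17 clones (vertical axis) against the mean over the 17 clones (horizontal axis), both of log2(CPM + 0.25), for the 10711 genes with a mean of at least 1 CPM (grey) and the adipocyte genes (orange). FABP4 (SD 1.62), ADIPOQ (1.38) and LPL (1.05) lie in the upper part of the cloud and PLIN1 (0.27) and PLIN2 (0.22) in its lower part, and PLIN4, with a mean under 1 CPM, is not among the grey points.

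Each clone was then compared with the other 16 by edgeR's quasi-likelihood test, 1 fit per clone, with Benjamini-Hochberg adjustment over all genes tested. With 1 library per clone, the clone is assumed to vary as the others do. Over the 17 fits 0.045% of all gene tests were called at an adjusted p below 0.05. Of the 153 tests on the adipocyte genes 1 was called, FABP4 in clone N, where it was higher by 3.61 on the log2 scale (SE 0.79, adjusted p = 0.0389; 85.5 CPM against a mean of 6.43 CPM in the other 16 clones). Clone N is also the clone in which most genes were called, 0.731% of 11761 against 0 genes in 15 of the clones. Without adjustment 8 of the 153 tests had a p below 0.05, where 4.4% of all tests did, and 5 of the 8 fell in clone N, where 16.5% of all genes did.

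Those 5 were FABP4 and, with their adjusted p above 0.05, ADIPOQ (log2 2.60, SE 0.81, adjusted p = 0.129), LPL (1.76, SE 0.78, adjusted p = 0.276), CEBPA (-2.14, SE 0.70, adjusted p = 0.147) and PLIN2 (-0.73, SE 0.29, adjusted p = 0.230). PPARG in clone N was 4.36 CPM. Beside this, clone N had the largest share of reads outside genes. With that share as a covariate the difference in FABP4 was 2.09 (adjusted p = 0.524), that in PLIN2 was 0.012 and so without its direction, and no test on the 9 genes was called. Clone N also held the highest summed level of 20 macrophage markers among the clones (110 CPM, of which the protease CTSS made up 95.3 CPM, against 15.1 to 73.1 CPM in the other 16), while the macrophage receptors CD163 (1 read) and MSR1 (0 reads) were near 0 there. Of 12 endothelial markers, 7 had at most 3 reads in every clone. Among them CDH5, CLDN5 and ROBO4 had 0 reads in all libraries, which may reflect the annotation. The summed level was 69.5 CPM in clone N, of which ERG made up 57.5 CPM. It was higher in 2 clones, and the range over all clones was 17.4 to 89.0 CPM. VWF (6.75 CPM) and TEK (2.40 CPM) were highest in clone N, whereas PECAM1 was 0.436 CPM there against a median of 0.758 CPM. The part of these genes in the level of FABP4 was not tested.

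Of 105 further genes of adipocyte biology tested in clone N, 2 were called and both were higher, where 0.731% of all genes were called. They were EBF1 (log2 1.61, SE 0.33, adjusted p = 0.0335), a transcription factor of fat cell precursors and marrow stroma, at 157 CPM against a median of 46.7 CPM over the clones, and NAMPT (1.04, SE 0.16, adjusted p = 0.00348), an enzyme of NAD synthesis that is also secreted by fat, at 90.8 CPM against 38.5 CPM. With the share of reads outside genes as a covariate neither was called (EBF1 0.97, adjusted p = 0.426; NAMPT 0.72, adjusted p = 0.382). The median of the 105 was -0.16 on the log2 scale and that of all genes tested was -0.03.

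Slopes over the 17 clones asked whether the other genes followed PPARG. The slope is the log2 change of a gene per unit of log2 PPARG, by the same test. CEBPA rose with PPARG, with a slope of 0.57 (SE 0.14, adjusted p = 0.0160), and was the only 1 of the 8 other genes called, in a comparison in which 9.78% of the 11226 genes tested were called. It was called with each clone left out in turn (slopes 0.49 to 0.63, adjusted p 0.0114 to 0.0422). Without both clones P and Q, the farthest from the median of PPARG, the slope was 0.64 with an adjusted p of 0.0721.

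Of the genes of the mature fat cell among the 9, none was called on PPARG. ADIPOQ had a slope of -0.93 (SE 0.32, adjusted p = 0.0713) and FABP4 one of -0.97 (SE 0.38, adjusted p = 0.109), both negative. Clone N bears on both: without it they were -0.58 (adjusted p = 0.231) for ADIPOQ and -0.35 (adjusted p = 0.453) for FABP4. Under other alternatives ADIPOQ was called, with a negative slope each time. These were DESeq2 (-0.95, adjusted p = 0.0103), leaving out clone L (-1.02, adjusted p = 0.0337) and leaving out clones P and Q (-1.34, adjusted p = 0.0386). Clones C, G, N and O, 4 of the 6 highest in ADIPOQ, were among the 6 lowest in PPARG, and clones E and F, the lowest 2 in ADIPOQ, were the highest 2 in PPARG. This overlap was also looked for after the values were seen. It counts C and O, and E and F, the most alike pairs of clones, as separate clones. Clones Q and P, the lowest 2 in PPARG, ranked 7 and 10 of the 17 in ADIPOQ.

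PLIN4, at its few reads, had a slope of 0.88 (SE 0.32, adjusted p = 0.0834), and it was called with all 18 libraries (1.08, adjusted p = 0.0471) and without clone L, which has 0 reads (0.92, adjusted p = 0.0277). The slopes of LPL (-0.11, 95% interval -0.62 to 0.41), CEBPD (-0.19, -0.49 to 0.12), PLIN1 (0.08, -0.07 to 0.24) and PLIN2 (0.12, -0.03 to 0.27) were not called. The intervals of all 4 lie below the estimate for CEBPA, but that of LPL overlaps the interval of CEBPA (0.30 to 0.84). Differences between slopes were not tested. The median slope of the 8 genes was -0.01, as was that of all genes tested.

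LPL, the marker of the adipogenic fate used in the study, gave another picture. FABP4 rose with LPL, with a slope of 1.16 (SE 0.21, adjusted p = 0.0300), the only 1 of 8 called where 0.543% of the 11226 genes were called. ADIPOQ had a slope of 0.55 (SE 0.23, adjusted p = 0.204), and PPARG (-0.04, 95% interval -0.52 to 0.43), CEBPA (-0.23, -0.56 to 0.11) and CEBPD (0.09, -0.21 to 0.39) were not called. The 3 perilipins lay between -0.13 and 0.07, and the median of the 8 slopes was 0.03 against 0.00 over all genes. Clone N was the highest in both genes, and without it the slope of FABP4 was 0.77 with an adjusted p of 0.640, and 0 genes in all were called. With the share of reads outside genes as a covariate it was 0.81 (adjusted p = 0.247). Leaving out B, C, E, G, O or Q also ended the call, with slopes of 1.11 to 1.18 and adjusted p of 0.0538 to 0.0620.

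**Figure D3:**
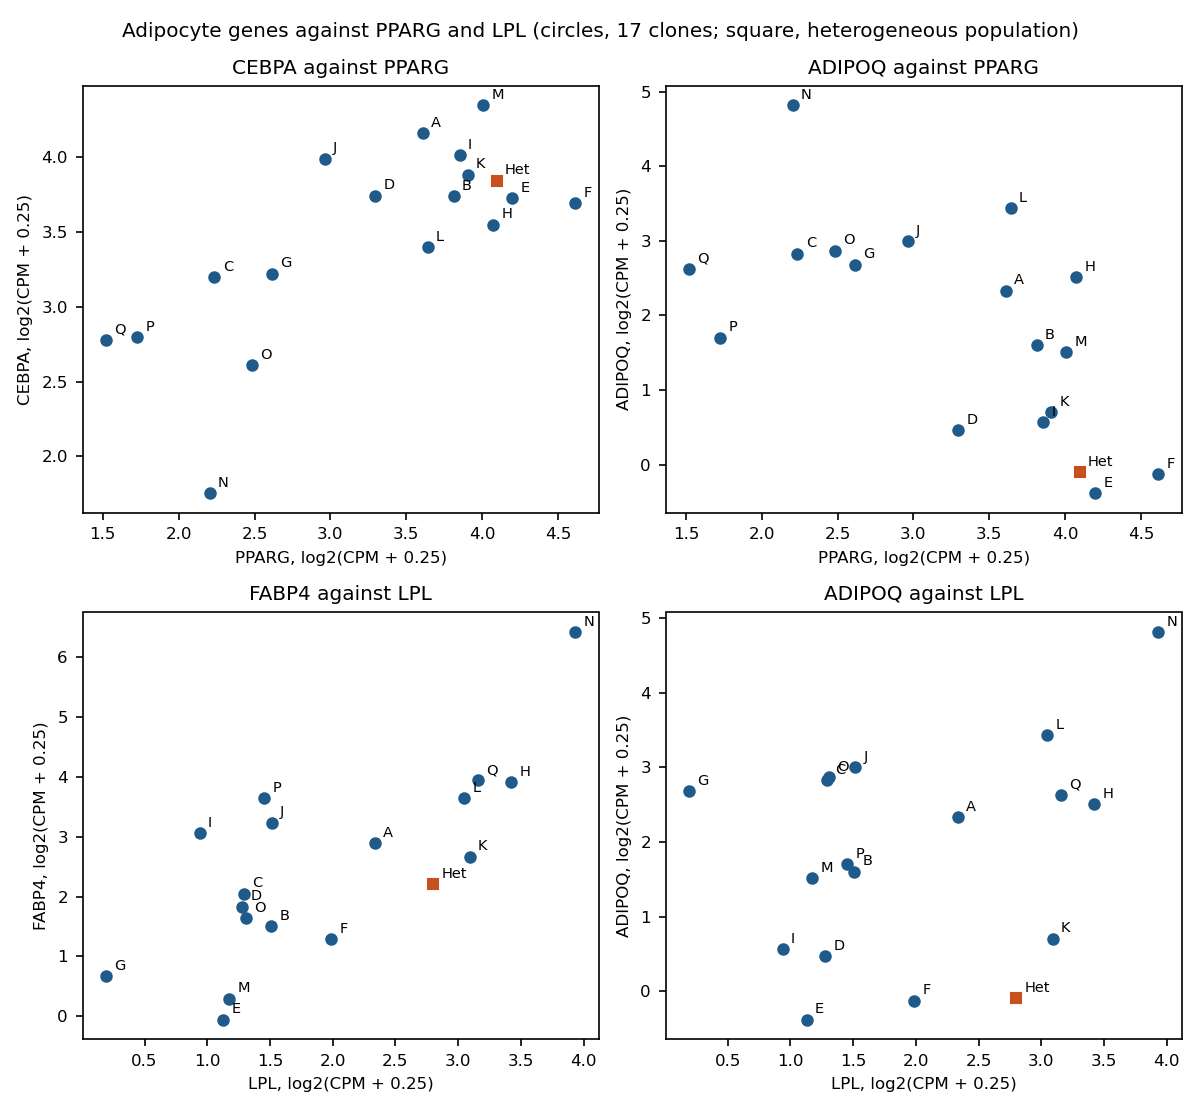
CEBPA and ADIPOQ against PPARG (upper panels) and FABP4 and ADIPOQ against LPL (lower panels), each axis as log2(CPM + 0.25), with a point per library. CEBPA rose with PPARG (slope 0.57) with clones C, G, N, O, P and Q at the lower left, whereas FABP4 against LPL (slope 1.16) has clone N alone at the upper right (85.5 and 15.03 CPM).

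**Figure D4:**
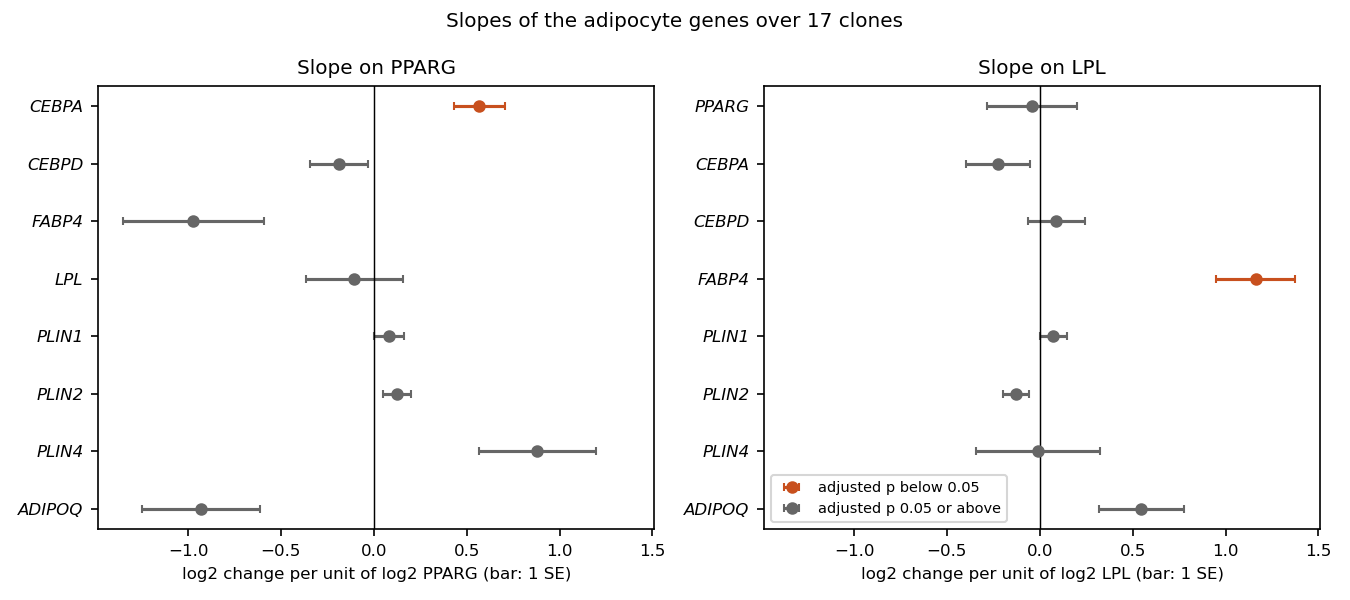
Slopes of the other adipocyte genes on PPARG (left) and on LPL (right) over the 17 clones, in log2 units per log2 unit, with bars of 1 SE. Orange marks an adjusted p below 0.05, which 1 gene had in each panel: CEBPA on PPARG (0.57) and FABP4 on LPL (1.16).

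Further lists of adipocyte biology, 9 in all and with the members left out, held 130 genes, of which 129 were listed and 101 entered the slope tests. On PPARG 18 of the 101 were called, 7 higher and 11 lower, where 4.42% of all genes were called higher and 5.36% lower, and the median slope was -0.01 for the 101 genes and for all genes. Of the 12 genes of precursors and marrow stroma tested, KITLG (slope 1.17, adjusted p = 0.00987), the stromal growth factor for blood and mast cells, and the transcription factor EBF3 (0.26, adjusted p = 0.00919) rose with PPARG, and the adhesion molecule ICAM1 (-0.85, adjusted p = 0.00499) and the receptor PDGFRA (-0.66, adjusted p = 0.0188) fell. KITLG ranged from 0.283 CPM in clone C to 8.06 CPM in clone K, and PDGFRA from 85.8 CPM in clone M to 851 CPM in clone N. With all 18 libraries ICAM1 was not called (-0.45, adjusted p = 0.264).

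Of the 15 genes tested that are listed as inhibitors of adipogenesis, 2 rose, 3 fell and the others were not called. WNT10B, a Wnt ligand that holds precursors back, rose with PPARG (0.63, adjusted p = 0.0292; 6.93 CPM in clone P to 44.9 CPM in clone D), as did TWIST1 (0.27, adjusted p = 0.0297), whereas ZNF521 (-0.71, adjusted p = 0.00228), a zinc finger protein that opposes early commitment, SOX9 (-0.75, adjusted p = 0.0172) and FOXO1 (-0.28, adjusted p = 0.0392) fell. ZNF521 went from 16.1 CPM in clone F, the highest in PPARG, to 142 CPM in clone P. Of the early regulators KLF5 fell (-0.39, adjusted p = 0.0321), 1 of 6 tested, and none of the 12 further master regulators and cofactors was called (3 had an unadjusted p below 0.05, as did 26.5% of all genes).

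Among lipid genes the droplet protein CIDEA (0.80, adjusted p = 0.0101), the acyl-CoA synthetase ACSL5 (0.29, adjusted p = 0.0125) and the mitochondrial PCK2 (0.39, adjusted p = 0.0168) rose with PPARG. G0S2, an inhibitor of triglyceride lipase, fell the most of the 18 (-1.33, SE 0.22, adjusted p = 0.00224; 0.145 CPM in clone I to 12.1 CPM in clone P). The fatty acid transporters SLC27A1 (-0.28, adjusted p = 0.0308) and SLC27A3 (-0.33, adjusted p = 0.0249) and the secreted RARRES2 (-0.77, adjusted p = 0.0283), known as chemerin, and C1QTNF2 (-0.57, adjusted p = 0.0362) fell. By list, this was 1 of 10 droplet proteins, 3 of 12 uptake and binding genes, 1 of 17 synthesis genes, 1 of 6 lipolysis genes and 2 of 11 adipokines and receptors.

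These calls differed in how they stood up to the choice of clones. Of the 18, 7 were called in each of the 17 fits with 1 clone left out, namely ACSL5, CIDEA, EBF3, G0S2, ICAM1, KITLG and ZNF521. FOXO1 was called in 8 of these fits, SLC27A1 in 10, KLF5 and C1QTNF2 in 11, RARRES2 in 13, SLC27A3, TWIST1 and WNT10B in 14, and PCK2, PDGFRA and SOX9 in 16. With the share of reads outside genes as a covariate KLF5 (adjusted p = 0.0790), WNT10B (0.0526), TWIST1 (0.0602), FOXO1 (0.0639) and C1QTNF2 (0.0784) were not called, and with proliferation as a covariate WNT10B, TWIST1 and FOXO1 were not. With all 18 libraries SLC27A1 (adjusted p = 0.0508), RARRES2 (0.0724) and, as given above, ICAM1 were not called. Without clones P and Q 14 of the 18 were not.

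**Figure D5:**
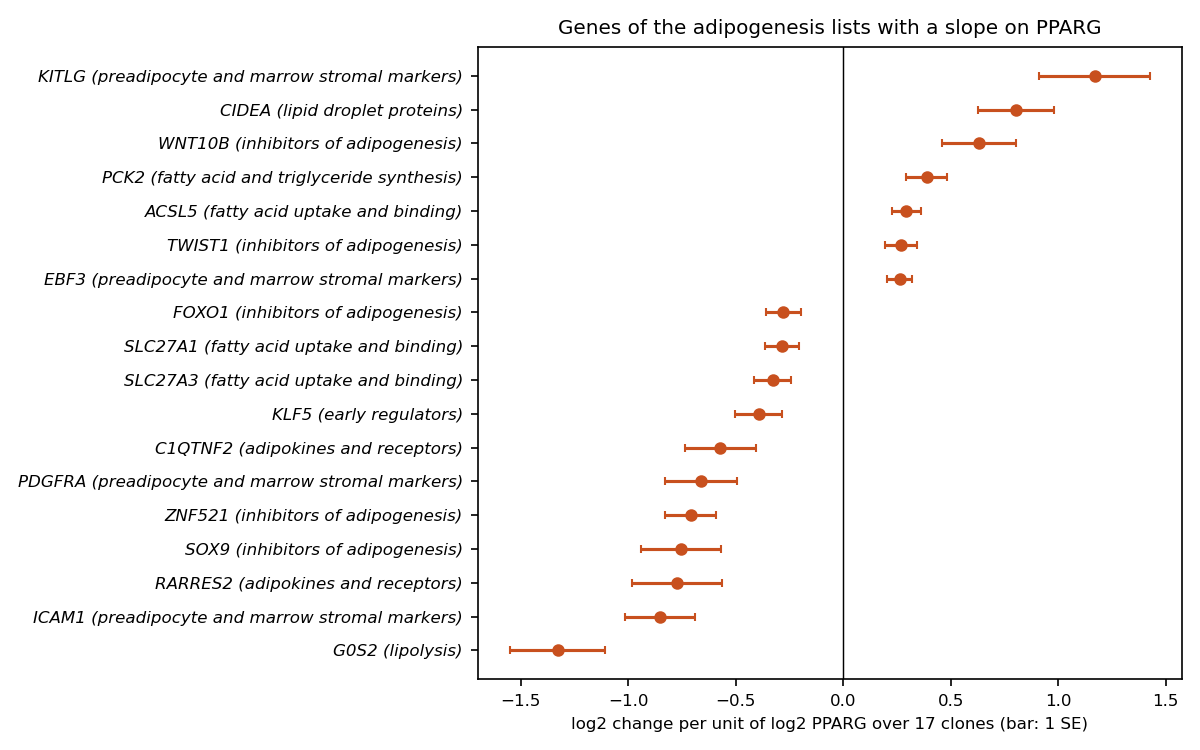
The 18 genes of the adipocyte lists with an adjusted p below 0.05 for their slope on PPARG over the 17 clones, in log2 units per log2 unit with bars of 1 SE, the list in brackets. Of these, 7 slopes are above 0, from EBF3 (0.26) to KITLG (1.17), and 11 are below 0, down to G0S2 (-1.33).

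Markers of other lineages were set beside PPARG. ACAN, the cartilage proteoglycan aggrecan, fell steeply as PPARG rose, with a slope of -1.93 (SE 0.30, adjusted p = 0.00155), and its level lay between 19.5 CPM in clone H and 3032 CPM in clone N. In the list of 9 cartilage and bone genes tested, 4 fell, where 5.36% of all genes were called lower. They were ACAN, SOX9 and, named after their values were seen, COL2A1 (-1.82) and COMP (-1.31), all of cartilage. With 1 clone left out COL2A1 was called in 17 of 17 fits and COMP in 5 of 17, and COMP was not called with the share of reads outside genes as a covariate (-0.94, adjusted p = 0.177) or with limma (adjusted p = 0.243). The bone genes SPP1 (0.05, adjusted p = 0.890) and RUNX2 (0.14, adjusted p = 0.401) were not called. Nor were ALPL (-0.36, adjusted p = 0.732) and SP7 (0.57, adjusted p = 0.214), bone genes named after their values were seen. On LPL, ACAN (0.65, adjusted p = 0.381), SOX9 (0.21, adjusted p = 0.588), SPP1 (0.18, adjusted p = 0.518) and RUNX2 (-0.23, adjusted p = 0.150) were not called. ALPL (-1.93, adjusted p = 0.0867) and SP7 (-0.85, adjusted p = 0.0916) had steeper slopes on LPL and were not called either. COMP alone of the 9 was (1.84, adjusted p = 0.00983), as seen after the values. Its level was highest in clone N (56.3 CPM against a median of 1.92 CPM), and the call was lost without that clone (1.76, adjusted p = 0.279), with the share of reads outside genes as a covariate (adjusted p = 0.242) and with limma (adjusted p = 0.0909).

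On LPL 3 of the 101 list genes were called, all higher, where 0.526% of all genes were called higher. They were EBF1 (0.42, adjusted p = 0.0340), NAMPT (0.23, adjusted p = 0.0442) and VCAM1 (1.76, adjusted p = 0.0396), an adhesion molecule of marrow stroma with 0 to 47 reads per clone. Each had its highest level in clone N, and without that clone the slopes were 0.26, 0.11 and 1.76, each with an adjusted p of 0.640. Over the 17 fits with 1 clone left out EBF1 was called in 9, VCAM1 in 5 and NAMPT in 4, and with the share of reads outside genes as a covariate none of the 3 was. Of the 12 stromal genes 11 had a slope above 0 on LPL, with a median of 0.27, and 1 was called. This list was singled out after the values were seen and had the highest median of the 9. Over all 9 lists 49 of the 101 genes had a slope above 0, with a median of -0.01, and the median of all genes was 0.00.

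Clones also differed in genes of proliferation. The summed level of 12 such genes ran from 105 CPM in clone M to 2056 CPM in clone L, and clones C, G, L and O held 1722 CPM or more with the other 13 at 774 CPM or less. Clones C, G and O were low in PPARG and clone L was not (12.2 CPM). In ADIPOQ clones L, O, C and G ranked 2, 4, 5 and 6 of the 17, as seen after the values. All 12 had a negative slope on PPARG, with a median of -0.56 and none called (2 with an unadjusted p below 0.05). When their summed level was a covariate, ADIPOQ had a slope of -0.85 on PPARG (adjusted p = 0.0795). With the summed level as a covariate, CEBPA rose with PPARG by 0.46 (adjusted p = 0.0374) and FABP4 with LPL by 1.20 (adjusted p = 0.0207), and ADIPOQ (2.77, adjusted p = 0.0386) and CEBPA (-2.14, adjusted p = 0.0333) were called in clone N beside FABP4.

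For each gene with a median of at least 20 reads, the 3 genes most like it over the 17 clones were taken by Pearson's r of log2(CPM + 0.25), as a description without a test. PPARG was most like TXN (r = 0.91), PPP1R12A (0.90) and SYTL2 (0.90), and CEBPA like MKNK2 (0.93), KLHDC5 (0.92) and FNDC1 (0.89). FABP4 was most like HEXIM1 (0.93), TSPO (0.93) and LRRN4CL (0.93). On ranks, where the distance of clone N from the others does not count, these 3 pairs had a Spearman's rho of 0.96, 0.92 and 0.96.

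ADIPOQ was most like NR4A2 (r = 0.91), C16H1orf159 (0.89) and ULBP21 (0.88), and LPL like C28H10orf54 (0.84), BBS9 (0.83) and ST3GAL5 (0.83). CEBPD was nearest to NEIL1, RAB3IL1 and ZSCAN21 (0.88 each), PLIN1 to TTC21B (0.87), CCDC168 (0.87) and ZC2HC1A (0.85), and PLIN2 to SRPX (0.88), PSAT1 (0.84) and SARS (0.83). No adipocyte gene was among the 3 nearest of another. The clones share one donor and culture, and r over 17 points picked from 10711 genes is high for many genes by selection.

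The heterogeneous population was compared with the 17 clones, with its 1 library assumed to vary as a clone does. None of the 9 genes was called by edgeR, in a comparison in which 1.22% of the 11878 genes tested were called (144 higher, 1 lower). DESeq2 and limma also called 0 of 9. One of the 9, PLIN4, had an unadjusted p below 0.05, as did 7.68% of all genes: it was read 35 times (2.17 CPM, 95% interval 1.51 to 3.02 CPM), above every clone, with a difference of 2.36 on the log2 scale (SE 0.98, adjusted p = 0.569). The heterogeneous library lay above every clone for 6.63% of the 12540 genes with at least 20 reads, and no adipocyte gene lay below every clone, which 10.4% of those genes did.

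CEBPD (log2 1.05, 95% interval -0.02 to 2.13) and ADIPOQ (-2.88, -6.33 to 0.56) were the next largest differences relative to their error. PPARG (0.68, -0.98 to 2.35), CEBPA (0.33, -0.94 to 1.61), LPL (0.63, -1.27 to 2.54) and FABP4 (-1.19, -4.81 to 2.44) had intervals too wide to place a single library, and PLIN1 (-0.01, -0.62 to 0.61) and PLIN2 (0.05, -0.55 to 0.65) were close to the clones. The median of the 9 differences was 0.33, and that of all genes tested was -0.04.

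Of 106 list genes tested, 1 was called, against 1.22% of all genes. It was CD36, the fatty acid translocase, which was higher by 3.85 (SE 0.86, adjusted p = 0.0229; 7.58 CPM against at most 2.32 CPM in a clone). With DESeq2 CD36 was not called (adjusted p = 0.186). CD36 is also a scavenger receptor of macrophages, and 13 of the 17 macrophage markers tested were called higher in the same library, with a summed level of the 20 markers of 327 CPM against 15.1 to 110 CPM in the clones. CD163 stood at 41.4 CPM there against at most 0.871 CPM. The part of macrophage RNA in the level of CD36 or PLIN4 was not tested. Of the master regulators and cofactors 5 of 13 had an unadjusted p below 0.05, where 7.68% of all genes did, with none called and a median difference of 0.89. This was the adipocyte list with the most such genes and the highest median, and adipokines and receptors came next with 3 of 11. Over all the adipocyte lists 13 of the 106 genes had an unadjusted p below 0.05, with a median difference of 0.16. The 12 proliferation genes all had a difference below 0 in this fit (median -3.01, none called, 1 with an unadjusted p below 0.05), with a summed level of 93.1 CPM against 105 CPM or more in every clone, and their part in these differences was not tested. Of the lineage markers ACAN (log2 -3.20, adjusted p = 0.767), SOX9 (-1.84, adjusted p = 0.699), SPP1 (-1.20, adjusted p = 0.698) and RUNX2 (0.29, adjusted p = 0.862) were not called.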

How the data were processed

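Libraries were made by the authors from poly-A RNA, read as 50-bp single ends, aligned to bosTau7 with STAR 2.3.0e and counted with HTSeq on RefSeq annotation release 103. The deposited counts are whole reads per gene, without normalization. Strand use in counting is not given in the sources used here, so overlapping antisense reads cannot be told apart. The 5 tally lines per file, with 18.8% to 26.8% of reads outside genes, stayed out of library sizes and tests, and the series table held the same counts (0 of 305892 cells differed).

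From the counts, CPM by reads on genes and log2(CPM + 0.25) were computed, with exact Poisson 95% intervals that cover counting error only. Differences and slopes were tested with edgeR 4.0.16 (TMM, filterByExpr, glmQLFit, glmQLFTest; two-sided, Benjamini-Hochberg over all genes tested) in R 4.3.3, with DESeq2 1.42.0 and limma 3.58.1 as alternatives, beside other size factors, no filter, a pseudocount of 1, all 18 libraries and each clone left out. Covariates (share of reads outside genes, summed proliferation genes) and leaving out the 2 farthest clones were added after seeing the data. The intervals of slopes and differences are 1.96 SE. Standard errors were derived from the F statistic. The fits were also run on simulated counts, drawn independently for each gene and library. Likeness between clones, such as that of C and O, was not simulated, and nothing here rests on that run. Levels and intervals were computed with scipy 1.17.1, pandas 2.3.3 and numpy 2.4.6 under Python 3.11.15, and drawn with matplotlib 3.10.9.

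Groups follow the clonality label. Nothing in the labels gives repeat cultures of a clone, so p-values measure the spread between clones of 1 donor. Named genes are the members, ACAN, SPP1, SOX9 and RUNX2, list genes past an adjusted p of 0.05 (at most 30 per fit), and the 3 nearest genes of members with a median of at least 20 reads. Members and lists were chosen with earlier results of these data known. Of the 16989 symbols 15471 (91.06%) matched the ARS-UCD2.0 RefSeq table, which is another assembly than bosTau7, so no coordinates are given.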

Additional observations from a re-analysis of the deposited data

How the results depend on the processing

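No paired analysis was possible because each clone has 1 library and the heterogeneous group has 1 sample. The slope on CEBPB was not run, since that symbol has no row. The 9 spreads between clones moved by less than their own size under every alternative, a limit too wide to measure how stable they are. With each clone left out the SD of FABP4 ran from 1.30 (without clone N) to 1.67. That of ADIPOQ ran from 1.20 to 1.42, that of CEBPA from 0.51 to 0.68 and that of PLIN1 from 0.21 to 0.28. For the heterogeneous library 0 of 9 adipocyte genes were called under all alternatives. Its 1 list gene became 2 without a filter, 4 with limma and 0 with DESeq2, where CD36 had an adjusted p of 0.186 and the 145 genes called became 88.

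On PPARG, the 1 gene called became 2 with DESeq2 (ADIPOQ added) and 2 with all 18 libraries (PLIN4 added), and 1 to 3 with each clone left out, 3 without clone L (ADIPOQ and PLIN4 added). Without clones P and Q ADIPOQ was called and CEBPA was not, with 5 list genes and 422 genes in all against 18 and 1098. With each clone left out these were 8 to 20 and 560 to 1539, and the counts were 10 list genes without P, 8 without F, and 720, 564 and 560 genes without E, F and P.

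On LPL, the 1 gene, 3 list genes and 61 genes called all became 0 with the share of reads outside genes as a covariate and, except for 1 gene, without clones H and N. List genes numbered 1 with limma, 5 with DESeq2 and 6 with proliferation as a covariate, and all genes 17, 478 and 454, and 40 with all 18 libraries. Leaving out a clone gave 0 or 1 gene, 0 to 3 list genes and 0 (clone N) to 320 (clone P) genes. All genes fell to 8 without B, 7 without C, 6 without E, O or Q, 2 without G, to 12, 29, 34 and 40 without M, L, F and D, and rose to 151 and 111 without A and K.

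For single clones, the 1 call became 2 with limma, 3 with proliferation as a covariate and 0 with the share of reads outside genes or without clone N, and the 90 calls over all genes became 524, 447, 1 and 5. The cause of these changes was not tested.

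Some values that were not called changed sign, most of them near 0, but FABP4 in the heterogeneous library from -1.19, PLIN2 in clone N from -0.73 and ACAN on LPL from 0.65. With the share of reads outside genes as a covariate these were, for the heterogeneous library, CEBPA (-0.044), FABP4 (0.16) and PLIN2 (-0.14), on PPARG LPL (0.13), on LPL PPARG (0.22), CEBPA (0.048), PLIN4 (0.55), ACAN (-0.072) and SOX9 (-0.028), and in clone N CEBPD (0.38) and PLIN2 (0.012). With limma they were PLIN1 in the heterogeneous library (0.023) and LPL on PPARG (0.020), and with proliferation as a covariate PPARG (0.018) and PLIN4 (0.034) on LPL. With all 18 libraries they were SPP1 on PPARG (-0.0028) and PPARG (0.0088) and PLIN4 (0.26) on LPL. Without clones P and Q they were CEBPD (0.033) and SPP1 (-0.064) on PPARG, and without H and N PPARG on LPL (0.045). With each clone left out PLIN1 in the heterogeneous library ran from -0.033 to 0.018 (above 0 at 0.0091, 0.0002, 0.0064, 0.0086, 0.013, 0.017 and 0.014 without E, F, I, K, L, N and Q), LPL on PPARG from -0.24 to 0.11 (0.053 without Q), and on LPL PPARG from -0.16 to 0.11 (0.027, 0.0017 and 0.063 without E, M and Q), CEBPD from -0.016 to 0.14 and PLIN4 from -0.40 to 0.17 (0.013, 0.027, 0.0092, 0.097 and 0.078 without A, D, J, L and Q). PLIN4 failed the count filter in some of these fits, and its few reads limit its slopes.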
